A study of Mus musculus with 2 samples.

Results

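Annexins, S100 proteins and galectins were compared between E14 mouse embryonic stem cells (ESCs) and E14-Sox2TA/WT cells by RNA-seq. Genes were taken by symbol from the gene table of the mm10 genome, and 38 of 24532 genes were members: 12 annexin genes (Anxa), 16 S100 genes, 9 galectin genes (Lgals) and S100pbp, which encodes a protein that binds an S100 protein and does not belong to that family. E14 is an established mouse ESC line with wild-type Sox2, and it was cultured with serum and LIF, the cytokine leukemia inhibitory factor. E14-Sox2TA/WT is a clone of E14 in which CRISPR/Cas9 editing put the T258A change into 1 Sox2 allele, so that alanine replaces the threonine at residue 258, which can carry the sugar O-GlcNAc. Besides serum and LIF, the clone was picked and maintained with 2i, that is PD0325901 and CHIR99021, which inhibit Mek and Gsk3, and 2i was withdrawn for some passages ahead of the experiments. The 2 cell populations therefore differ in genotype, in being a single clone and in culture history, which cannot be told apart here.

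Annexins are cytosolic proteins that bind acidic phospholipids of membranes when calcium rises, and they take part in membrane repair, vesicle traffic and the link between membrane and actin. S100 proteins are small calcium sensors built from a pair of EF-hands, and several of them dock onto annexins: S100a10 joins Anxa2 in a tetramer under the plasma membrane, and S100a11 binds Anxa1. Galectins are lectins that bind β-galactosides on glycoproteins, both at the cell surface and on damaged vesicles. Most S100 genes lie in a cluster on mouse chromosome 3, whereas annexin and galectin genes are spread over many chromosomes.

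There was 1 library of each genotype, of 60263536 counted reads for E14 and 44609228 for E14-Sox2TA/WT cells. Differences were thus not checked by replicates, and p-values were not computed. Levels are given as TPM, the relative abundance of transcripts corrected for their length. Ratios are E14-Sox2TA/WT over E14 on the log2 scale, followed by a 95% interval that covers the counting of reads alone. Sox2 itself had a TPM of 372.5 in E14 and 274.2 in E14-Sox2TA/WT cells. The labelled cell type was checked on 10 ESC markers, and all 10 reached a TPM of 10, with 1 of them, Nanog, more than 2-fold lower in E14-Sox2TA/WT cells. As these are bulk samples, more cells that express a gene and more RNA per cell cannot be told apart.

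A gene passed the filter when its TPM was 10 or more in either library, and 18 of the 38 members did so. Among these, 6 were more than 2-fold higher in E14-Sox2TA/WT cells (S100a6, Anxa3, Lgals3, Anxa1, Anxa2 and Lgals1), 3 were more than 2-fold lower (Anxa8, S100a13 and S100a1) and 9 were neither. Over all 9094 genes that passed, 4.17% were higher and 4.07% were lower by the same rule, or 8.24% in either direction. Of the 18 members, 6 reached a TPM of 10 in 1 library only, and the filter favors a difference at such genes. Anxa8, S100a13, S100a1 and S100a16 did so in E14 only, and Anxa1 and Lgals3 in E14-Sox2TA/WT cells only. All 3 lower members are thus of this kind. Where a TPM of 10 was required in both libraries, 12 members were left, with 4 higher, 0 lower and 8 neither, beside 2.7% higher and 2.03% lower among all genes so chosen. The members' median log2 ratio was 0.22, beside 0.08 for all genes past the filter. The scaling changed the split of 6 higher and 3 lower members to 5 and 4 with the FPKM ratio, which lies 0.14 below the TPM ratio on the log2 scale at the median gene, and to 5 and 3 with the ratio centred on its median. The shares of all genes moved too, to 3.06% higher and 5.45% lower with the FPKM ratio and to 3.38% and 4.79% with centring. Summed over all members, the TPM was 990.1 in E14 and 1475 in E14-Sox2TA/WT cells.

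**Figure D1:**
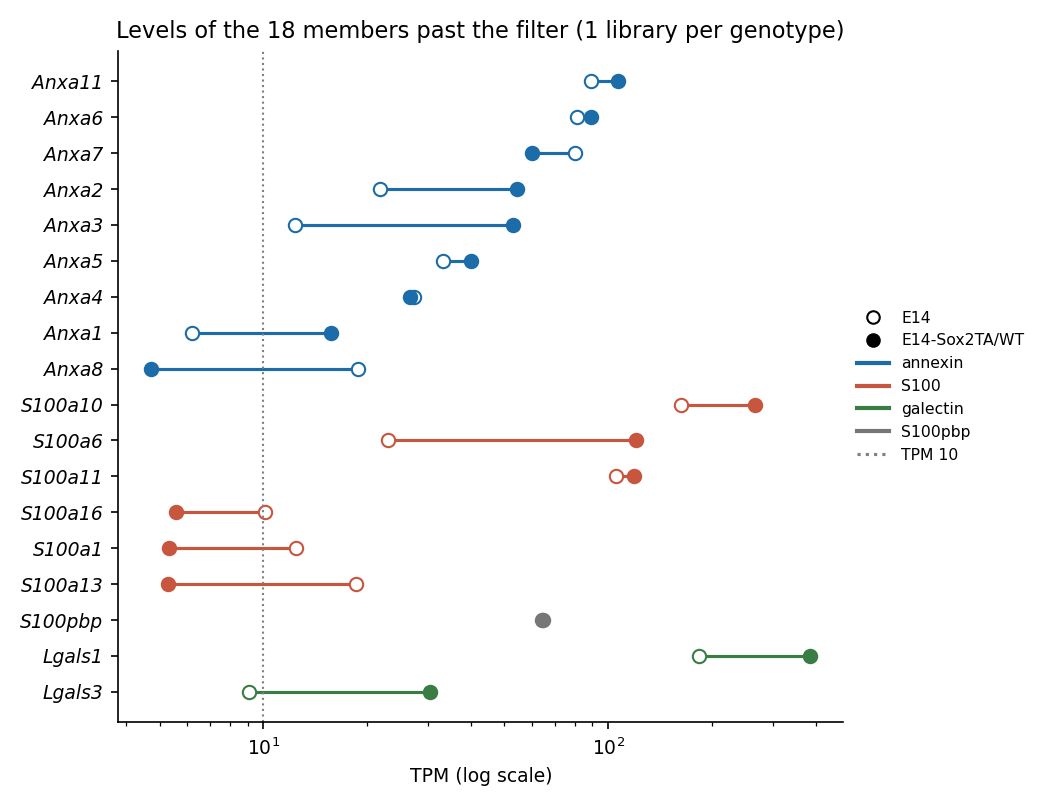
Levels of the 18 members that passed the filter. Each row is a gene, the x axis is TPM on a log scale, open points are E14, filled points are E14-Sox2TA/WT cells and a line joins the 2 libraries. The line is long for S100a6 (23.0 and 120.6) and short for Anxa4 (27.4 and 26.7), and Anxa8, S100a13, S100a1 and S100a16 lie between 4.72 and 5.57 in E14-Sox2TA/WT cells.

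**Figure D2:**
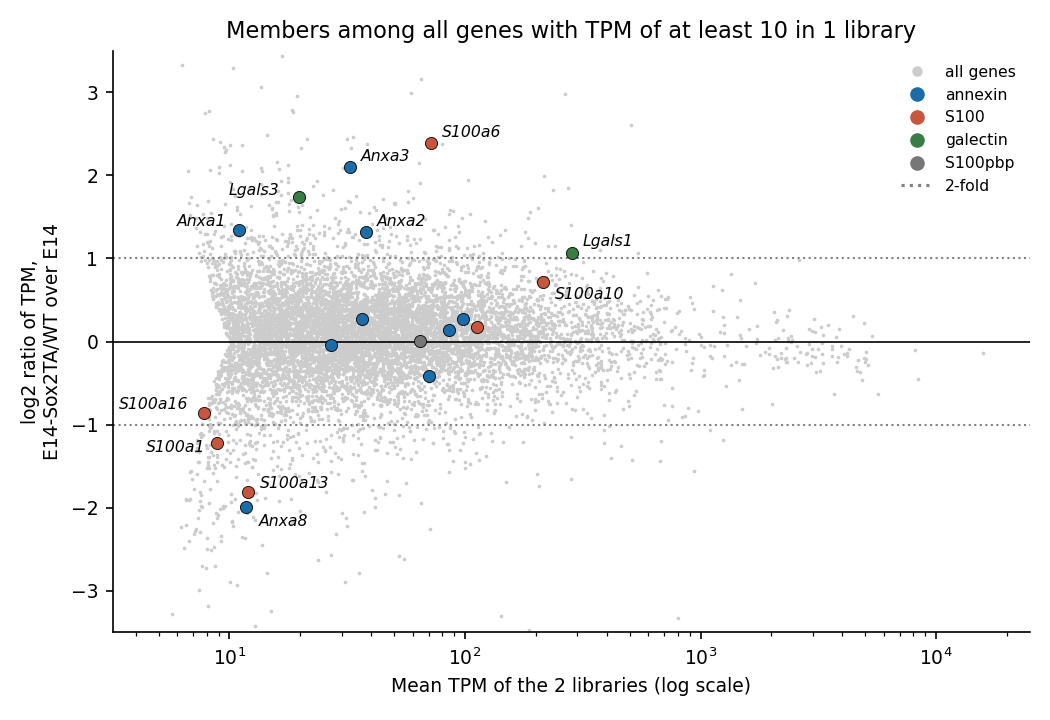
Members among the genes past the filter with reads in both libraries. The x axis is mean TPM on a log scale and the y axis is the log2 ratio of TPM, with gray points for all genes, colored points for members and dotted lines at 2-fold; 25 genes beyond 3.5 on the y axis are not drawn. The 9 members past 2-fold are named, as are S100a10 and S100a16.

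Annexins split into genes that were higher, genes that were nearly level and 1 gene that was lower. Anxa3, an annexin of epithelial and myeloid cells, was at a TPM of 12.4 from 622 reads in E14 and 52.9 from 1784 reads in E14-Sox2TA/WT cells, a log2 ratio of 2.1 (1.97 to 2.23). This put it at rank 43 of 9094 genes by ratio. Anxa2, the membrane-bound partner of S100a10, had a TPM of 21.8 (945 reads) and 54.3 (1574 reads), a log2 ratio of 1.31 (1.20 to 1.43). Anxa1, which is secreted during inflammation and acts on formyl peptide receptors, had a TPM of 6.20 (273 reads) and 15.7 (464 reads), a log2 ratio of 1.34 (1.13 to 1.57). The intervals of all 3 genes lay wholly above 2-fold, and they stayed above 2-fold under each of the 8 other scalings, pseudocounts and corrections tried.

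Anxa8 went the other way. It is an annexin of squamous and placental epithelia, and it was at a TPM of 18.8 from 1112 reads in E14 and 4.72 from 188 reads in E14-Sox2TA/WT cells. The log2 ratio was -1.99 (-2.23 to -1.77), which is 3.99-fold lower, at rank 82 from the lowest of 9094 genes.

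The annexins with the highest levels in E14 changed little. Anxa11, which ties RNA granules to lysosomes and works with the calcium sensor ALG-2, had a TPM of 88.9 and 107.0 (log2 ratio 0.27), and it shares 657 identical bases with Gm2260, a copy that is not in the table. Anxa6, an annexin with a doubled core that binds cholesterol-rich membranes, had 81.1 and 89.4 (0.14, and -0.0025 with the FPKM ratio, so it has no stable direction). Anxa7 had 80.2 and 60.0 (-0.42, -0.48 to -0.36). Anxa5, which binds phosphatidylserine, had 33.1 and 40.0 (0.27), and Anxa4 had 27.4 and 26.7 (-0.04, -0.15 to 0.07). These 5 genes lay within 1.5-fold. The makeup of the family differed more than its total, as Anxa2 and Anxa3 went from 5.88% and 3.33% to 12.0% and 11.7% of the summed annexin TPM. That sum was 371.3 in E14 and 452.5 in E14-Sox2TA/WT cells. Anxa9 was low (83 and 68 reads), with an interval that spanned no change (-0.17 to 0.80). Anxa10 had 5 reads and 0 reads. With a floor of 3 reads in place of the 0, it was 1.23-fold lower in CPM, the read count scaled to the library's total. That leaves out the counting error of the 5 reads, so its direction is uncertain. Anxa13 had no reads in either library.

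Among S100 genes, S100a6 (calcyclin), a partner of several annexins that is abundant in proliferating and mesenchymal cells, differed most of those past the filter. The level was 23.0 TPM (521 reads) in E14 and 120.6 TPM (1831 reads) in E14-Sox2TA/WT cells, a log2 ratio of 2.39 (2.25 to 2.53), or 5.25-fold higher. It stood at rank 28 of 9094 genes by ratio and went from 6.85% to 22.9% of the summed S100 TPM. S100a10 had the highest level of the S100 genes in both libraries, with a TPM of 162.3 (3322 reads) and 265.9 (3648 reads). Its log2 ratio of 0.71 (0.64 to 0.78) was short of 2-fold. S100a11 had 105.4 and 118.7, a log2 ratio of 0.17 (0.06 to 0.28). S100a11 has 5 similar copies among the annotated transcripts that are not rows of the table. They match 44.4% to 59.3% of its transcript at 90.6% to 99.0% identity. No source says how reads with several mapping places were counted, so the value of S100a11 is uncertain.

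The annexin partners moved by unequal amounts. The TPM of S100a10 was 7.44 times that of Anxa2 in E14 and 4.90 times in E14-Sox2TA/WT cells, since Anxa2 had the larger ratio. The TPM of S100a11 was 17.0 times that of Anxa1 in E14 and 7.54 times in E14-Sox2TA/WT cells. The pair of S100a6 and Anxa11 went the other way: the TPM of S100a6 was 0.259 times that of Anxa11 in E14 and 1.13 times in E14-Sox2TA/WT cells. These are levels of mRNA, and no protein was measured.

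A further 3 S100 genes past the filter had a lower TPM in E14-Sox2TA/WT cells, 2 of them by more than 2-fold. All 3 passed the filter through E14 alone, the library where they were higher. S100a13, which takes part in the export of signal proteins that lack a secretion signal, had a TPM of 18.6 (419 reads) and 5.28 (80 reads), a log2 ratio of -1.81 (-2.18 to -1.47). S100a1, a regulator of calcium handling in muscle, had 12.4 (241 reads) and 5.31 (69 reads), a log2 ratio of -1.22 (-1.63 to -0.83), so counting error alone did not separate it from a difference under 2-fold, and it was -0.99 once a trend with GC content and length had been removed. S100a16 had 10.1 (338 reads) and 5.57 (125 reads), a log2 ratio of -0.86 (-1.17 to -0.56), short of 2-fold, though it came to -1.0 and just past 2-fold with the FPKM ratio and to -0.52 with the GC and length trend removed. S100pbp was level, with a TPM of 64.1 and 64.7, and its log2 ratio of 0.01 changed sign with the scaling.

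The direction changed along the chromosome, a pattern noticed in these data and not tested. The 13 S100 members on chromosome 3 lie between 90511034 and 93564645 (mm10), in a block from S100a1 to S100a9 of 184.7 kb and, beyond 2825 kb that hold the epidermal differentiation genes, a second block of S100a11 and S100a10. At one end of the first block, all 4 neighbors S100a1, S100a13, S100a14 and S100a16 had a lower TPM in E14-Sox2TA/WT cells, with a summed TPM of 41.4 and 16.2. S100a14 rests on 13 and 3 reads, a log2 ratio of -2.0 (-4.45 to -0.14). Of the next 5 genes, S100a3, S100a4 and S100a6 had a higher TPM and S100a2 and S100a5 had no reads, with a summed TPM of 23.4 and 125.1. S100a4, also called fibroblast-specific protein or metastasin, had 4 and 32 reads (TPM 0.25 and 2.98, log2 ratio 3.55, 2.06 to 5.51), and S100a3 had 5 and 22 reads (TPM 0.18 and 1.46, log2 ratio 3.04, 1.60 to 4.79). Both are counted as higher among genes with a TPM from 1 to under 10 in the higher library, of which 10.9% were more than 2-fold higher and 21.5% more than 2-fold lower. The annotation holds a further gene on the same strand, Gm42674, that shares 144 exonic bases with S100a3 and 302 with S100a4. Reads in those bases could thus not be assigned to S100a3 or S100a4 with certainty. S100a8 and S100a9, the calgranulins of neutrophils, had no reads in either library.

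**Figure D3:**
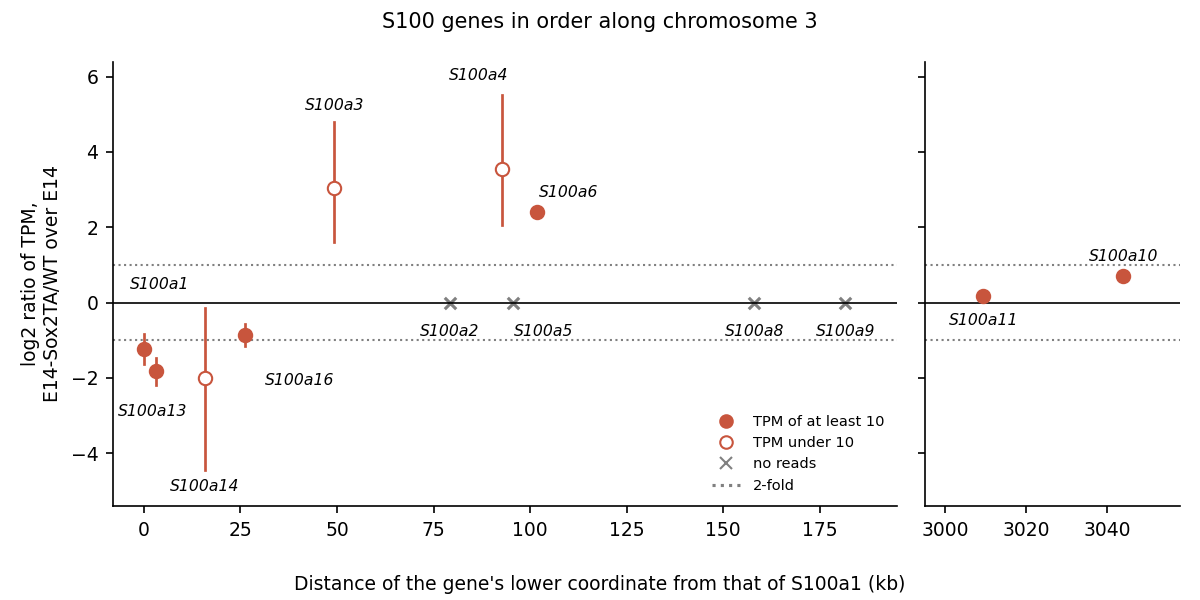
Log2 ratio of TPM for S100 genes in their order along chromosome 3. The x axis is the distance in kb from S100a1, broken between the blocks, vertical lines are 95% counting intervals, open points have a TPM under 10 in both libraries and crosses mark genes with no reads, drawn at 0. S100a1, S100a13, S100a14 and S100a16 lie below 0, from -2.0 to -0.86, and S100a3, S100a4 and S100a6 lie above 2-fold.

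The genes around the cluster were examined next. In the 500 kb before S100a1, 16 genes passed the filter, with a median log2 ratio of 0.26, 1 higher and 1 lower than 2-fold. The 406 genes of chromosome 3 that passed the filter and are no members, those 16 included, had a median of 0.09. Inside the span of the cluster lie 57 other genes of the table, of which none passed the filter and 43 had no reads. Among the 57 is S100a7a, an S100 gene between S100a6 and S100a8 that the choice by symbol left out, with 0 and 2 reads. Of the 14 with reads, 10 had a higher TPM in E14-Sox2TA/WT cells and 4 a lower one. S100a7a, Ivl, Lce1h and 2310050C09Rik rest on 2 or 3 reads in all. The share of all genes at such levels with a higher TPM was not computed, so these counts are no result about the region. Some of the 14 were chosen for mention after their values were seen. Lor (loricrin), a protein of the cornified envelope, had 0 and 35 reads, and the small proline-rich gene Sprr2a1 had 21 and 240 reads, a log2 ratio of 4.09 (3.45 to 4.81) at a TPM of 0.18 and 3.10. Sprr2a1, Sprr2a2 and Sprr2a3 are close copies, so their reads may be shared.

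S100a1 and S100a13 are a divergent pair. S100a1 runs on the minus strand from a RefSeq start site at 90514330 and S100a13 on the plus strand from 90514435, 105 bases apart, and both were more than 2-fold lower. Other annotated starts differ. The RefSeq span of S100a13 begins at 90514233, inside S100a1, and GENCODE M21 has S100a1 start at 90514392. The promoter window of S100a13, from 250 bases before the start site to 50 after it (chr3:90514185-90514484, GRCm38, plus strand), shares 204 bases with the window of S100a1. The sequence is shown because a single stretch of DNA lies upstream of the start sites at 90514330 and 90514435. The capitals run from that site of S100a1 to that of S100a13.
S100a13 and S100a1: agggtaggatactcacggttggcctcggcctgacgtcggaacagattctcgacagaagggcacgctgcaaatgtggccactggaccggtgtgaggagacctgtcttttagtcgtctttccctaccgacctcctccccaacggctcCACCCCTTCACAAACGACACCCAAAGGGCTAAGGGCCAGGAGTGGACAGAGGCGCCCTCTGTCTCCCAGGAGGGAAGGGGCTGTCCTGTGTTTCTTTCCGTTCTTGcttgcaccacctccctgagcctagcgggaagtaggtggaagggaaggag
This window holds 14 CpG dinucleotides, beside a median of 7 in all 32817 windows of the table. That count lies between the quartiles of all windows, which are 3 and 20. Whether reads were assigned by strand is not stated, so reads near the start sites of the pair cannot be assigned to either gene with certainty.

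Promoter windows from RefSeq (GRCm38.p6) were at hand for 29 of the 38 members, among them 4 of the 6 that were higher and all 3 that were lower. They were searched on both strands for 7 motifs. The core promoter motifs were the TATA box with the letters TATAAA, the CCAAT box searched by those letters and the GC box, spelled GGGCGG. The motifs of transcription factors were those of AP-1, with the letters TGANTCA, of TEAD factors, spelled GGAATG, of Sox factors, spelled CATTGT, and the CArG box of Srf. The windows of the 4 higher members are printed 5′ to 3′ because all these genes were higher, with every match in capitals, and no matches overlapped in them.
Anxa1 (chr19:20390622-20390921, minus strand): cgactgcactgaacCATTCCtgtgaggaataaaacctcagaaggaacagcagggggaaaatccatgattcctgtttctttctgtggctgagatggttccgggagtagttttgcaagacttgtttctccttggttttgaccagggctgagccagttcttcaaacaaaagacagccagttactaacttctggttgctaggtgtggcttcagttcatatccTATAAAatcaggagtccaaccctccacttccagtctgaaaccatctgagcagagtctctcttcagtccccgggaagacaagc
Anxa2 (chr9:69453433-69453732, plus strand): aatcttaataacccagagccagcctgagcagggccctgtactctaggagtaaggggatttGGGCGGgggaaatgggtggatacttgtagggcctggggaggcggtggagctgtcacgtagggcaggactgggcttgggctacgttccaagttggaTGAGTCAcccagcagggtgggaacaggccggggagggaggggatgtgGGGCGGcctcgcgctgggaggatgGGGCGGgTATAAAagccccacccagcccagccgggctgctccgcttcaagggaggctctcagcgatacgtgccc
Lgals3 (chr14:47373610-47373909, plus strand): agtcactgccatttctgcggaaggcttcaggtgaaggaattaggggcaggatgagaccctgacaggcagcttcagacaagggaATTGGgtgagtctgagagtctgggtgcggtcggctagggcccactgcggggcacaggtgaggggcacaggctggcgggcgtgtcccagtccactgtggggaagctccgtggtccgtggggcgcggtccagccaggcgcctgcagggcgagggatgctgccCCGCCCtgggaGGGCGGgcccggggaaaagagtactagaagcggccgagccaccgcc
S100a6 (chr3:90612644-90612943, plus strand): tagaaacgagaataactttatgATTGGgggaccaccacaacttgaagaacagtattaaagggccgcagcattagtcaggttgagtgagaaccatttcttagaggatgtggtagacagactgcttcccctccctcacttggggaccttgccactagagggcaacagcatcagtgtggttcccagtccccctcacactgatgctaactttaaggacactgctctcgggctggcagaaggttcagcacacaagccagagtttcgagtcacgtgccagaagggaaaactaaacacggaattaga
The higher members had no motif in common. A TATA box was found in Anxa1, 32 bases before the start site, and in Anxa2, 17 bases before it, and 13.6% of all windows hold one. Anxa2 also held an AP-1 match 95 bases before the start site, which 7.81% of all windows have, and 3 GC boxes. Lgals3 had 2 GC boxes and a CCAAT box, and S100a6 had a CCAAT box 228 bases before the start site. GC boxes were found in 35.6% and CCAAT boxes in 37.4% of all windows, and the TEAD match of Anxa1 in 14.7%. None of the 7 windows of higher or lower members held the Sox letters (12.6% of all windows) or a CArG box (1.63%). In Anxa8 and in the S100a1 and S100a13 windows, none of the 7 motifs was found. A match is a description of letters, and binding was not measured here.

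Of the galectins, 2 passed the filter and both were higher. Lgals1 (galectin-1), a lectin secreted by mesenchymal and placental cells, had the highest level of all members, 183.8 TPM from 4632 reads in E14 and 385.9 TPM from 6516 reads in E14-Sox2TA/WT cells. Its log2 ratio of 1.07 (1.02 to 1.12) was just past 2-fold, and it was 0.99 with the ratio centred on its median and 0.93 with the FPKM ratio, but 1.46 with the GC and length trend removed. Lgals1 lies on chromosome 15, whose 395 other genes past the filter had a median of -0.14. Lgals3 (galectin-3), which gathers at damaged endosomes and lysosomes, had a TPM of 9.10 (398 reads) and 30.4 (896 reads), a log2 ratio of 1.74 (1.57 to 1.91). It lies on chromosome 14, whose 324 genes past the filter that are no members had a median of 0.15. Lgals1 made up 83.9% of the summed galectin TPM in E14 and 89.3% in E14-Sox2TA/WT cells.

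The other 7 galectin genes had a TPM under 10 in both libraries, and each had a lower value in E14-Sox2TA/WT cells, with a summed TPM of 26.2 and 15.6. Low genes leaned the same way as a whole, with a median log2 ratio of -0.14 over all genes with a TPM from 1 to under 10 in the higher library. Lgals2 and Lgals6 lie below that class. The share of all low genes with a lower TPM was not computed, so the shared direction of the 7 is no result about the family. Lgals9, a galectin of immune regulation, had 338 and 85 reads (TPM 7.10 and 2.69, log2 ratio -1.40, -1.76 to -1.06). Lgals7, a galectin of stratified epithelium, had 72 and 11 reads (-2.15, -3.22 to -1.23), and Lgals12, a galectin of fat cells, had 104 and 20 reads (-1.79, -2.56 to -1.09). Lgals8, a galectin that marks damaged vesicles for autophagy, had 755 and 476 reads (-0.08, -0.25 to 0.09), an interval that spanned no change. It shares 155 exonic bases with Heatr1 on the opposite strand, which had 12674 and 16630 reads. Lgals4, a galectin of the gut, had 220 and 116 reads (-0.35, -0.68 to -0.01), and its duplicate Lgals6 had 1 and 0 reads, so the pair is uncertain. Lgals2 had 17 and 0 reads, which is 4.19-fold lower in CPM with the floor of 3 reads in place of the 0. The counting error of the 17 reads is left out of that value, so it is not a lower bound.

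Of the 9 members with a TPM from 1 to under 10 in the higher library, 2 were more than 2-fold higher (S100a3 and S100a4), 4 were more than 2-fold lower (Lgals7, Lgals9, Lgals12 and S100g) and 3 were neither, beside the 10.9% and 21.5% of all such genes given above. S100g (calbindin-D9k), a calcium carrier of gut and uterus, had 45 and 5 reads (TPM 2.97 and 0.39, log2 ratio -2.91, -4.60 to -1.58). A further 4 members had reads but a TPM under 1, and 7 had no reads (Anxa13, S100a2, S100a5, S100a8, S100a9, S100b and S100z). Zero reads allow a level of up to 0.0498 CPM in E14 and 0.0673 CPM in E14-Sox2TA/WT cells, from 3 reads, so expression below that was not detectable at this depth.

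**Figure D4:**
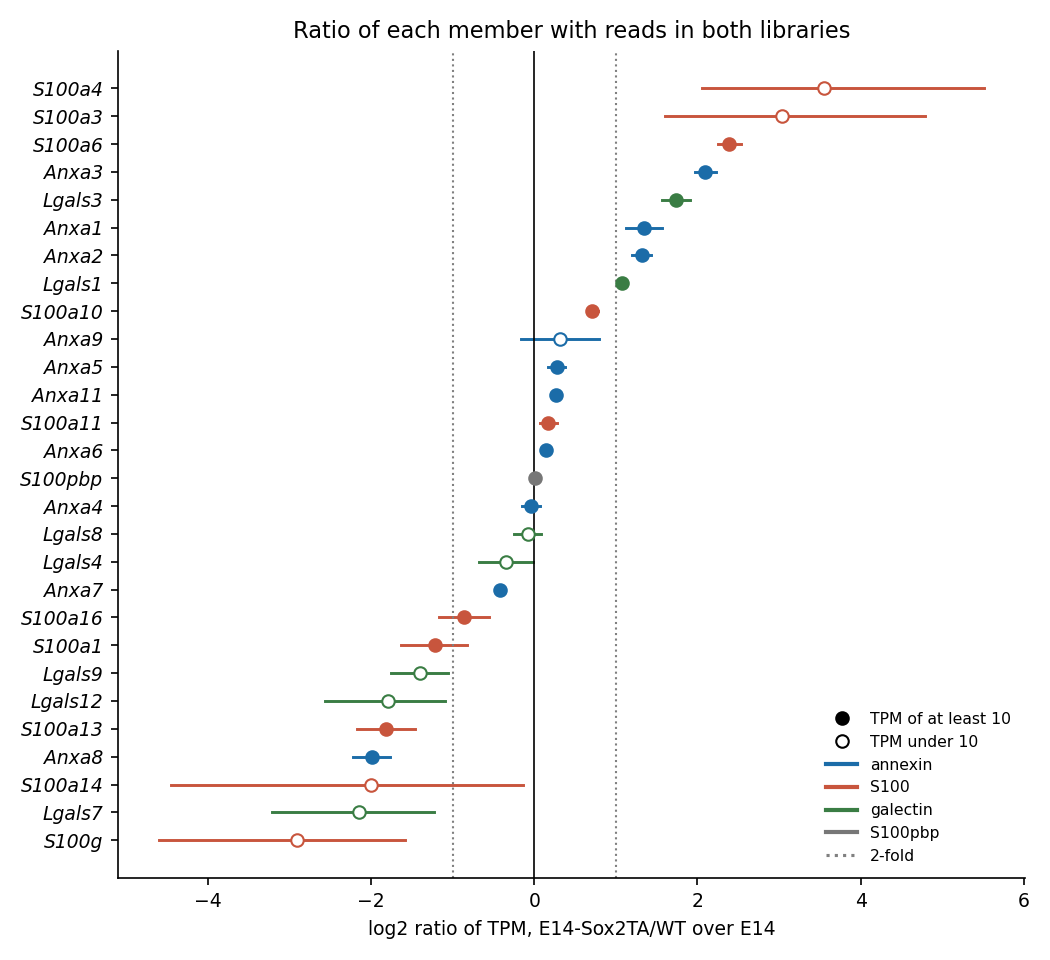
Log2 ratio of TPM for the members with reads in both libraries, in order of the ratio. Horizontal lines are 95% counting intervals, filled points passed the filter, and dotted lines mark 2-fold. S100a6, Anxa3, Lgals3, Anxa1 and Anxa2 lie above 2-fold with their whole interval, as does Lgals1 by a small margin, and the intervals widen for genes with few reads such as S100a4, S100a14 and S100g.

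Genes that work with the members were taken from 6 lists. Of the membrane repair and annexin partner genes, 13 passed the filter, with 2 higher, 0 lower and a median log2 ratio of -0.09. The higher ones were Capn2, the large subunit of the calcium-activated protease m-calpain, with a TPM of 11.6 and 49.2 (log2 ratio 2.09, 1.99 to 2.19), and Ahnak, the giant scaffold that binds the Anxa2-S100a10 tetramer, with 10.7 and 24.8 (1.21, 1.15 to 1.26). Capns1, the small subunit shared by the calpains, had the highest level of the list, 594.9 and 339.0 (-0.81). Of plasminogen activation genes, 3 passed, with none past 2-fold: the receptor genes Plaur (26.4 and 36.3) and Plgrkt (19.1 and 29.7) and the protease inhibitor gene Serpine2 (75.1 and 48.7). The receptors of Anxa1 and S100 proteins also had 3 past the filter and none past 2-fold, with Bsg highest (461.6 and 367.1), and 5 of the 10 had no reads.

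Of galectin ligands and enzymes of N-glycan branching, 8 passed and 1 was higher, Itgb1 (integrin β1), with a TPM of 120.9 and 275.3 (log2 ratio 1.19, 1.16 to 1.22). Lamp1, a lysosomal membrane protein, had the highest level in E14-Sox2TA/WT cells, 441.4 and 572.8. The other EF-hand proteins had 13 past the filter, with 1 higher and 1 lower: Calm2, a calmodulin gene, had 253.1 and 601.5 (1.25, 1.21 to 1.29), and Hpca, a neuronal calcium sensor, had 12.0 and 4.27 (-1.49). None of the epidermal differentiation genes passed. The shares past 2-fold in these lists can be read against the 4.17% and 4.07% of all genes.

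**Figure D5:**
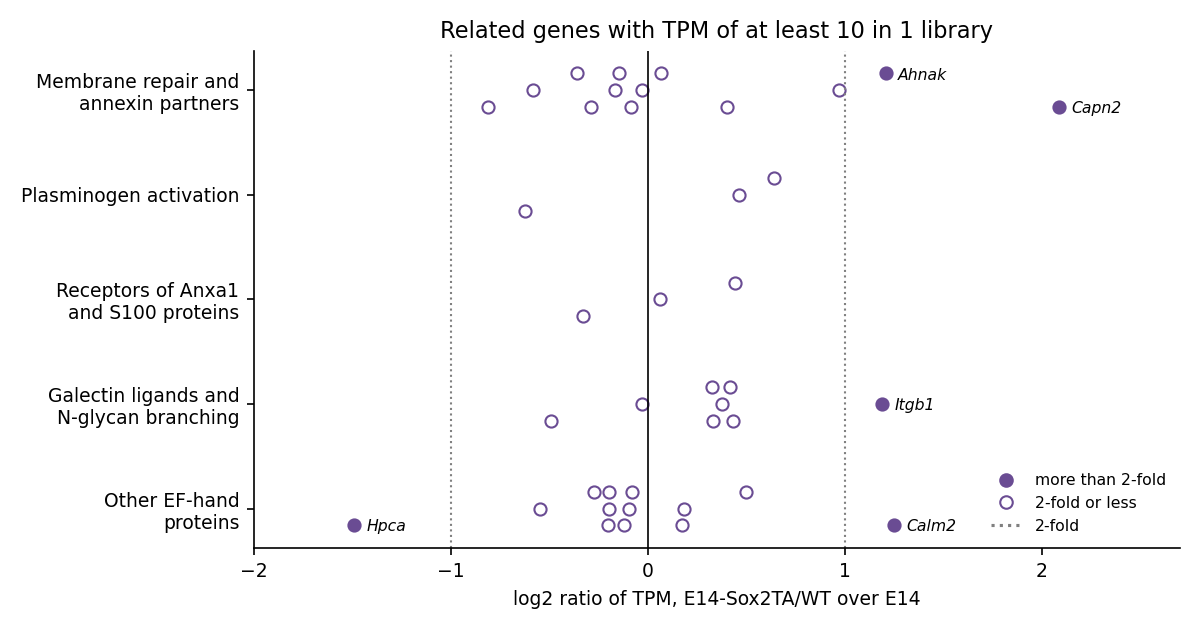
Log2 ratio of TPM for related genes that passed the filter, by list. Each point is a gene, filled where it differed more than 2-fold, and dotted lines mark 2-fold. Capn2, Ahnak, Itgb1 and Calm2 lie above 2-fold and Hpca below, and the other points lie within 2-fold.

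Several members that were higher are abundant in fibroblasts, so markers of other cells were examined. Of 12 fibroblast markers, 1 passed the filter, Thy1, and it was lower (TPM 40.1 and 11.4). The summed TPM of the list was 56.5 in E14 and 21.4 in E14-Sox2TA/WT cells, and Dcn, Lum, Postn and Fap had no reads in either library. Most of that sum was Thy1. Pdgfra (1280 and 218 reads, log2 ratio -2.04) and Pdgfrb (1151 and 327 reads, -1.24) were also lower, at a TPM under 10. The collagen genes of the list did not follow. Col1a1 was nearly level, with 497 and 370 reads (0.15, -0.05 to 0.35). Col3a1 had 15 and 151 reads, at a TPM of 0.08 and 1.28, and Col1a2 had 43 and 109 reads, at 0.26 and 0.98 (log2 ratio 1.93, 1.4 to 2.47). Of 10 blood cell markers, 1 passed, Cd68, and it was lower (52.1 and 11.2). The list summed to 55.2 and 12.0, nearly all of it Cd68, and Ptprc and Lyz2 had no reads. Of 10 squamous epithelium markers none passed, with sums of 3.07 and 2.90. The 12 endoderm markers had 5 past the filter, with 0 higher and 1 lower (Gata4, 15.0 and 3.80), and sums of 461.5 and 253.9. Most of both sums was Sparc (286.8 and 145.9). Under a TPM of 10, Gata6 (952 and 174 reads, log2 ratio -1.88), Sox17 (344 and 67 reads, -2.09) and Sox7 (322 and 68 reads, -1.68) were more than 2-fold lower. So was Pdgfra, which is on this list too. Each of the 12 had a lower TPM in E14-Sox2TA/WT cells. The 10 trophoblast markers had 2 past the filter, with Cdx2 higher (0.47 and 12.2) and Tfap2c lower (50.9 and 16.1), and sums of 72.6 and 45.5. Most of the E14 sum was Tfap2c. At a TPM under 10, Eomes was higher (300 and 575 reads), and Ascl2 (335 and 83 reads) and Krt7 (442 and 135 reads) were lower. The part of such cells in the members' ratios was not tested.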

How the data were processed

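Polyadenylated RNA of 1 E14 and 1 E14-Sox2TA/WT library was sequenced on an Illumina NovaSeq instrument. The submitters' processing notes name bcl2fastq 2.20.0, Trimmomatic, HISAT2 2.1.0 and StringTie 2.1.3b, with the builds hg19 and mm10, without saying what each was used for. The gene table, with RefSeq and Entrez IDs, is of mm10. The deposited read counts are unnormalized whole numbers per gene. The FPKM values deposited by the authors are scaled to transcript length and fragment number, and the deposited TPM values to sums of 993247 and 994155. Strand handling and treatment of multiply mapped reads are not given in the sources used here. Every column of values was used, and TPM over FPKM was constant within a library for the members.

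The ratio of TPM was taken without a pseudocount. Following the study's methods, genes with a TPM under 10 in both libraries were left out of calls, and a ratio past 2-fold was called. The rule called 379 genes higher and 370 lower. These are not the counts that the study reported, so the calls need not be the study's genes. Counting intervals (95%) were exact Clopper-Pearson bounds of the read counts (scipy 1.17.1) placed on the TPM scale. Intervals and the 3-read floor leave out every error but that of counting, as copies made by PCR are not independent. Members and related lists were chosen with earlier results of these data known. All members were named, with the related genes past 2-fold and the highest of each list. The span of the S100 cluster came from RefSeq (GRCm38.p6), and similar copies (at least 90% identity over 200 bases, blastn 2.17.0) and overlaps from GENCODE M21, which gave a transcript for 37 of 38 members. Alternatives were other filters, pseudocounts, fold thresholds, TMM (edgeR 4.0.16) and median-of-ratios (DESeq2 1.42.0) scaling of counts, centring, FPKM, rescaling without the 10 highest genes, and taking out a trend with GC content and transcript length in 20 bins each.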

Additional observations from a re-analysis of the deposited data

How the results depend on the processing

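The 6 higher and 3 lower members were recounted under 16 alternatives, and 28 of the 32 counts stayed within 1.5 times. Leaving out S100pbp, which was called neither, was among the 16 and could not change either count. Centring, FPKM and rescaling without the 10 highest genes each shift the members' ratios by a constant, so the alternatives are not independent. The number of lower members was 7 with the filter set to a TPM of 1, 0 with 20 and 8 with no filter, and the number of higher members was 3 at 3-fold. The shares of all genes moved with these settings, to 9.95%, 3.05% and 12.4% lower and to 1.14% higher. These settings admit more or fewer genes by construction. For the 18 members past the filter, 137 of 144 ratios under 8 alternatives kept their sign. Anxa6 changed sign with the FPKM ratio (-0.0025), and S100pbp with TMM (-0.048), median-of-ratios scaling (-0.028), centring (-0.073), FPKM (-0.13), rescaling without the 10 highest genes (-0.0035) and the GC and length trend removed (-0.19). Lgals1 fell short of 2-fold with centring and FPKM, and S100a1 with the trend removed. No paired analysis was possible because each genotype had 1 library, and for the same reason no library could be left out. The spread between cultures is unknown, and depth limits the members with few reads.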
